A study of Saccharomyces cerevisiae S288C with 8 samples.

Results

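The place of endogenous Cse4 in cdc7-7 was compared with that in wild type, both grown in glucose, by setting the lists of Cse4 ChIP-seq peaks of these strains side by side. All peaks of both lists were taken, 183 in cdc7-7 and 811 in wild type, which is 994 of the 3243 peaks in the 4 lists of the series. CEN peaks are those that cover 1 bp or more of an annotated centromere, and all others are non-CEN peaks. The cdc7-7 list held 16 CEN and 167 non-CEN peaks, and the wild type list held 16 CEN and 795 non-CEN peaks. A non-CEN peak was called shared where it overlapped a peak of the other list by at least 1 bp.

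Both Saccharomyces cerevisiae strains expressed Cse4 from its own promoter, with the genotype CSE4-HA cdc7-7 for the mutant and CSE4-HA for the wild type in the sample labels. The labels name an HA tag where the paper writes Flag-Cse4, and chromatin of both strains was precipitated with anti-FLAG M2 gel. Cells were cultured at 23° for 1.75 hr, and the cdc7-7 allele, like the CDC7 of the wild type, was marked with KanMX. The study used further strains with GAL-driven Cse4 in galactose to ask how the Cdc7 kinase bears on the place of Cse4. Each strain gave 1 ChIP library with 1 input library, so no difference below can be set against a spread between replicates, no test was run, and every interval covers counting error only.

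Cse4 is the budding yeast CENP-A, the histone H3 variant of the nucleosome on which the kinetochore is built. A budding yeast centromere is a point centromere, a short stretch of DNA with 3 elements: CDEI is bound by Cbf1, CDEII is a spacer of A and T rich DNA over which the Cse4 nucleosome sits, and CDEIII is bound by the CBF3 complex. Cdc7 with its partner Dbf4 forms DDK, the kinase that fires replication origins through the MCM helicase, and cdc7-7 is a temperature-sensitive allele of it. Psh1, an E3 ubiquitin ligase, is known to mark Cse4 outside centromeres for proteolysis.

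The CDEI and CDEIII elements of the 4 centromeres to which the comparison returns most often are printed here 5′ to 3′ on the strand that runs from CDEI to CDEIII, from build R64. CEN13 and CEN4 had the strongest peaks in both strains, CEN9 had the weakest in both, and CEN8 had the highest ratio between strains. Capitals mark the 6 bases of the CDEI core and the CCGAA core of CDEIII.
CEN13 CDEI, chrXIII:268031-268040, plus strand: atCACATGac
CEN13 CDEIII, chrXIII:268125-268149, plus strand: tgtgtatgcgttCCGAActttaaat
CEN4 CDEI, chrIV:449711-449720, plus strand: gtCACATGct
CEN4 CDEIII, chrIV:449797-449821, plus strand: tgtttatgattaCCGAAacataaaa
CEN9 CDEI, chrIX:355629-355638, plus strand: ttCACGTGaa
CEN9 CDEIII, chrIX:355721-355745, plus strand: tggttttgttttCCGAAatgttttt
CEN8 CDEI, chrVIII:105694-105703, minus strand: atCACATGac
CEN8 CDEIII, chrVIII:105586-105610, minus strand: gggttttgtgttCCGAActtagaaa
All 4 carried the CCGAA core, and the CDEI core was CACATG at CEN13, CEN4 and CEN8 and CACGTG at CEN9.

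The libraries differed in depth, which sets how weak a peak each list can hold. The deposited lists give, for the summit of each peak, the fold enrichment of the ChIP pileup over the local background and the −log10 p and q, and the pileup and background were solved from these values. The median background at the 16 centromeres was 76.2 fragments in cdc7-7 and 200.3 fragments in wild type, a ratio of 0.380. The weakest peak had a fold enrichment of 1.38 in cdc7-7 and 1.18 in wild type, and the non-CEN peaks covered 0.754% of the nuclear genome in cdc7-7 and 3.53% in wild type. At the median centromeric background, a peak needed a fold enrichment of 1.39 in cdc7-7 and 1.21 in wild type to reach the weakest p of its own list. A site with a fold enrichment between these values could therefore be called in wild type and not in cdc7-7. The pileup could be solved for 182 of 183 peaks in cdc7-7 and 810 of 811 in wild type.

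All 16 centromeres carried 1 peak in each strain. Their median fold enrichment was 8.58 in cdc7-7 (4.70 to 20.3) and 5.45 in wild type (3.40 to 23.2). The fold enrichment was higher in cdc7-7 at 14 of 16 centromeres, and the median of the 16 ratios of cdc7-7 over wild type was 1.51. In fragments, the median summit pileup was 695 in cdc7-7 and 1097 in wild type, which is not corrected for depth. The weakest CEN peak was 1.85 times the strongest non-CEN peak of its list in cdc7-7, and 1.4 times in wild type, so in both strains every CEN peak stood above every non-CEN peak.

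The centromeres did not differ between strains by 1 common factor. The ratio was highest at CEN8, which had a fold enrichment of 10.4 in cdc7-7 and 5.07 in wild type, a ratio of 2.04. CEN10 had a fold enrichment of 8.72 in cdc7-7 and 4.67 in wild type, and CEN14 had 13.7 in cdc7-7 and 7.90 in wild type. CEN12 stood at 6.67 in cdc7-7 and 3.83 in wild type, and CEN6 at 6.93 in cdc7-7 and 4.06 in wild type. These 5, with CEN16, are the centromeres whose counting interval of the ratio lay above the median ratio. CEN16 had 8.32 in cdc7-7 and 4.89 in wild type, and CEN1 had 11.6 in cdc7-7 and 7.03 in wild type. The values at CEN7 were 6.94 in cdc7-7 and 4.50 in wild type, and those at CEN11 were 7.60 in cdc7-7 and 5.12 in wild type. At these 4 centromeres the ratio lay between 1.48 and 1.7, beside the median of 1.51 over all 16. CEN2 had a fold enrichment of 9.39 in cdc7-7 and 6.93 in wild type, and CEN3 had 10.1 in cdc7-7 and 8.25 in wild type. The ratio was 1.36 at CEN2 and 1.22 at CEN3, both below the median.

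The strongest centromeres went the other way. CEN13 had a fold enrichment of 20.3 in cdc7-7 and 23.2 in wild type, from pileups of 1910 fragments in cdc7-7 and 5332 fragments in wild type. CEN4 had a fold enrichment of 18.3 in cdc7-7 and 20.9 in wild type, from pileups of 1594 fragments in cdc7-7 and 4290 fragments in wild type. Both had a ratio of 0.873, and they were the only centromeres that were higher in wild type. Calculated as pileup over background without the pseudocount, the ratio at CEN4 was 0.878 with a 95% counting interval of 0.828 to 0.930, and that at CEN13 was 0.878 with an interval of 0.833 to 0.925. At CEN5 and CEN15 the interval included 1. CEN5 had 8.45 in cdc7-7 and 8.30 in wild type, and CEN15 had 6.12 in cdc7-7 and 5.78 in wild type. At the other 12 centromeres the interval lay above 1, with a median lower bound of 1.37 and a median upper bound of 1.7 over all 16.

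The spread among centromeres was narrower in cdc7-7, where the highest fold enrichment was 4.32 times the lowest, against 6.83 times in wild type. The order of the centromeres was largely kept. CEN13 ranked first and CEN4 second in both strains, and CEN9 ranked last in both, with a fold enrichment of 4.70 in cdc7-7 and 3.40 in wild type and a pileup of 344 fragments in cdc7-7 and 645 in wild type. Over the 16 centromeres, Spearman's rho of the fold enrichment between strains was 0.785 and Pearson's r of its log2 was 0.892. Without CEN4 and CEN13 these were 0.679 and 0.739 over the remaining centromeres, which share their libraries and are not replicates. CEN15 moved most in rank, with rank 15 in cdc7-7 and 8 in wild type, and CEN5 had rank 9 in cdc7-7 and 3 in wild type.

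**Figure D1:**
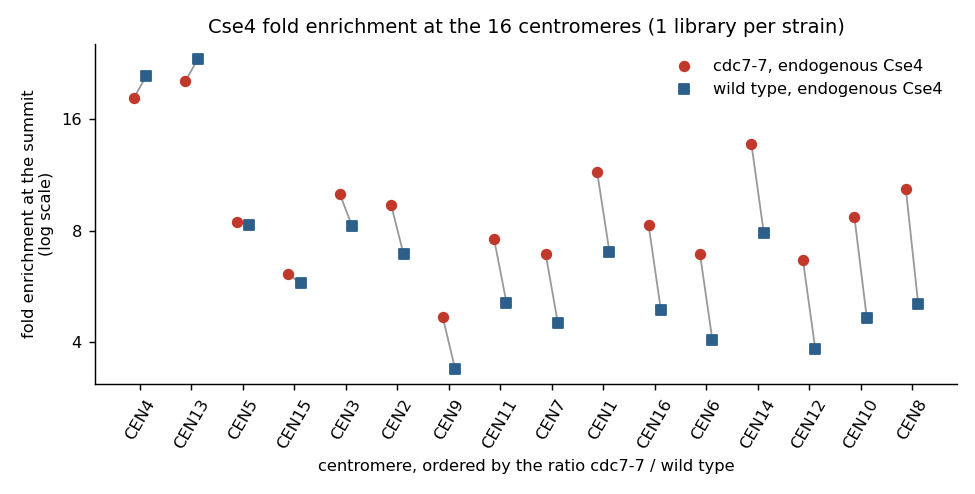
Fold enrichment of Cse4 at the peak summit (vertical axis, log scale) for each of the 16 centromeres, ordered from the lowest to the highest ratio of cdc7-7 over wild type; red circles are cdc7-7 and blue squares wild type, 1 library each, joined for each centromere. CEN4 and CEN13 are the strongest in both strains and the only centromeres higher in wild type, and CEN8 at the right end has the highest ratio, 2.04.

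How far the CEN ratio differs from 1 depended on what the fold enrichment was set against. The median fold enrichment of the non-CEN peaks was 1.68 in cdc7-7 and 1.38 in wild type, a ratio of 1.22. With each CEN value divided by the non-CEN median of its own list, the median ratio of cdc7-7 over wild type was 1.24 and 12 of 16 centromeres were higher in cdc7-7. The non-CEN median is itself raised where a shallower library calls fewer weak peaks. Each strain is a single library with its own precipitation, duplicates and depth, and these cannot be told apart from the strain.

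By their median, the summits of the CEN peaks lay closer to the middle of the centromere in cdc7-7. Measured from the middle of the centromere and counted as positive toward CDEIII, the median summit was at 45.25 bp in cdc7-7 and at 83 bp in wild type. The summit fell inside the annotated centromere at 11 of 16 centromeres in cdc7-7 and at 5 of 16 in wild type, and past the CDEIII edge at 4 in cdc7-7 and 10 in wild type. The wild type summit lay further toward CDEIII at 12 centromeres, further toward CDEI at 3 and at the same base at 1, with a median distance of 33.5 bp. The widest distance was 113 bp at CEN7, whose summit was at −21 bp in cdc7-7 and at 92 bp in wild type. At CEN6 the summit was at 57.5 bp in cdc7-7 and 147.5 bp in wild type. At CEN12 it was at 54.5 bp in cdc7-7 and 124.5 bp in wild type. CEN9 was the exception in both strains, with its summit past the CDEI edge at −181 bp in cdc7-7 and −172 bp in wild type. Each distance is between 2 single summits, whose own error is unknown.

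**Figure D2:**
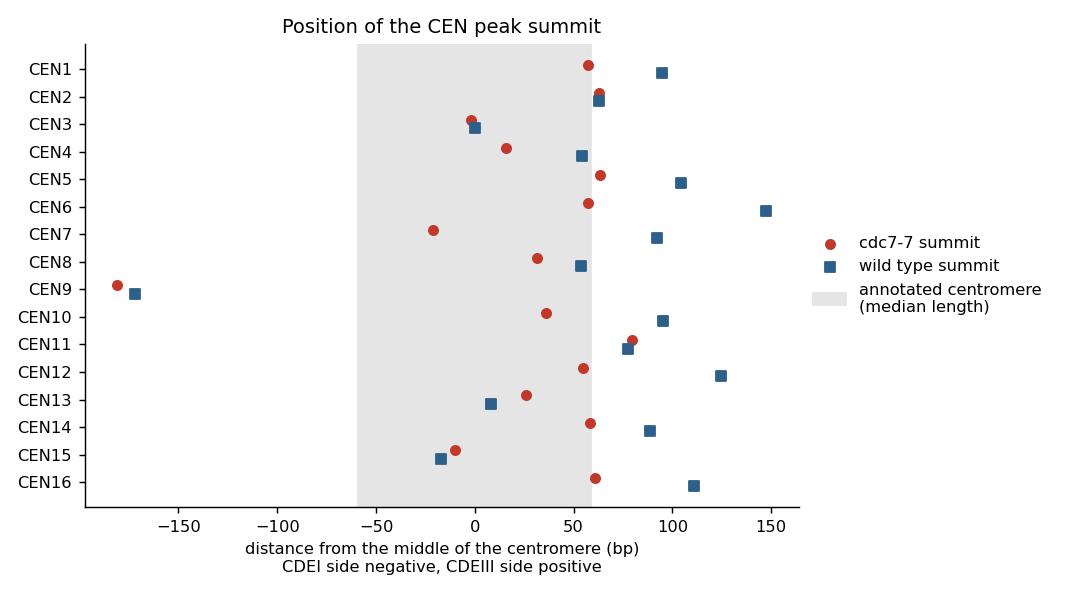
Position of the CEN peak summit along each centromere, in bp from its middle, with the CDEI side negative and the CDEIII side positive; red circles (cdc7-7) sit above blue squares (wild type) in each row and the grey band is the annotated centromere at its median length. Summits of 11 cdc7-7 and 5 wild type peaks fall inside the centromere, and both CEN9 summits lie far to the CDEI side.

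The CEN peaks were of similar width in both strains, with a median of 1251 bp in cdc7-7 (915 to 2493 bp) and 1300.5 bp in wild type (915 to 2816 bp), and were wider in wild type at 12 of 16 centromeres. The CDEII elements were 76 to 85 bp long and 86.9 to 97.6% A and T. CEN13, with the strongest peak in both strains, had the lowest share of A and T, and CEN9, with the weakest, had the highest. Across the 16 centromeres, Spearman's rho between this share and the fold enrichment was −0.311 in cdc7-7 and −0.581 in wild type, given as a description.

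Away from the centromeres, most of the peaks of the shorter list were also in the longer one. Of the 167 non-CEN peaks in cdc7-7, 134 (80.2%) overlapped a wild type peak and 33 did not. Of the 795 non-CEN peaks in wild type, 134 (16.9%) overlapped a cdc7-7 peak and 661 did not. The overlap followed the strength of the peaks. Among cdc7-7 peaks of a fold enrichment below 1.5, 6 of 16 (37.5%) were shared, against 38 of 40 (95%) at 1.8 or more. Among wild type peaks below 1.3, 10 of 167 (5.99%) were shared, between 1.5 and 1.6 the share was 23 of 73 (31.5%), between 1.6 and 1.8 it was 35 of 62 (56.5%), and at 1.8 or more it was 28 of 31 (90.3%). The strong wild type sites were thus nearly all called in cdc7-7, and the weak ones rarely.

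**Figure D3:**
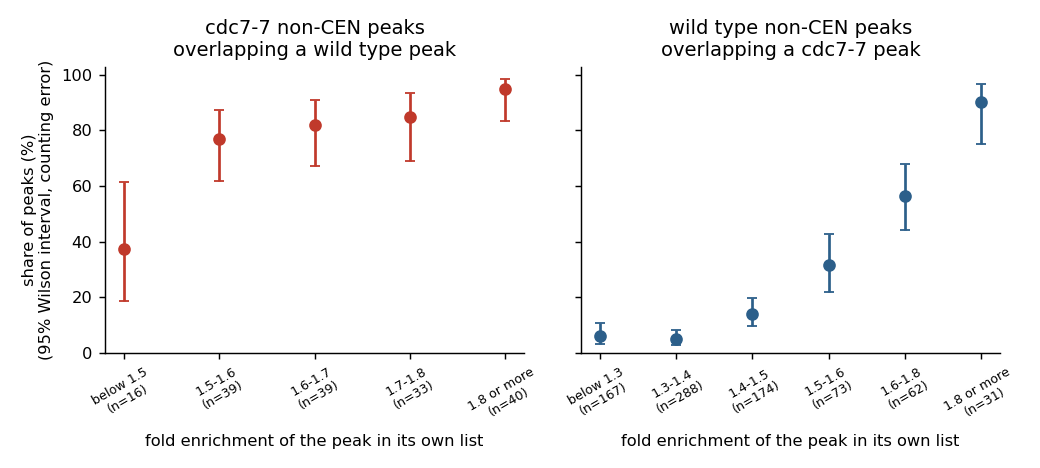
Share of the non-CEN peaks of each strain that overlap a peak of the other (vertical axis, percent, with 95% Wilson intervals for counting error), by the fold enrichment of the peak in its own list; cdc7-7 on the left and wild type on the right, with the number of peaks under each step. The share is 37.5% for the weakest cdc7-7 step and 95% for the strongest, and 5.99% for the weakest wild type step and 90.3% for the strongest.

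To allow for depth, the pileup and background of each wild type peak were multiplied by 0.380 and its Poisson p was calculated again. Of the 795 wild type peaks, 352 would still reach the weakest p of the cdc7-7 list, and 112 of these (31.8%, 95% Wilson interval 27.2 to 36.9%) overlapped a cdc7-7 peak. The remaining 240 would have passed and were not in the cdc7-7 list. Of the 661 peaks in wild type only, 421 would not have passed. Another 22 wild type peaks did not pass or could not be solved, yet overlapped a cdc7-7 peak. Not passing therefore does not mean that cdc7-7 could not call a site, and the part of depth in the sites in wild type only was not tested. This calculation takes the counts at the wild type summits without their sampling error and is not a new peak calling.

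By gene, a peak was assigned where it overlapped the annotated body of a protein-coding gene by at least 1 bp. Of 6002 genes, 146 (2.43%) had a non-CEN peak in cdc7-7 and 672 (11.2%) had one in wild type. Both strains had a peak at 123 genes (2.05%), cdc7-7 only at 23 (0.383%) and wild type only at 549 (9.15%). No library of the series is labelled as a ChIP from an untagged strain, so whether a weak non-CEN peak marks Cse4 was not tested. The genes with a peak in both were mostly genes with a codon usage typical of very high expression. Their median codon adaptation index (CAI), which is high for genes whose codons resemble those of the ribosomal protein genes, was 0.746, against 0.230 in cdc7-7 only, 0.223 in wild type only and 0.193 over all genes. Of the 121 genes in both with a CAI, 85 (70.2%) were among the 5% of genes with the highest CAI, against 4 of 23 (17.4%) in cdc7-7 only and 104 of 541 (19.2%) in wild type only. Genes with an intron made up 34 of the 123 genes in both (27.6%), 3 of the 23 in cdc7-7 only, 68 of the 549 in wild type only (12.4%) and 5.30% of all genes. Most of the 34 were ribosomal protein genes, and only 6 of the 229 other genes with an intron had a peak in both.

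The 10 strongest shared sites are described one by one. ENO2, encoding the enolase that is most abundant in glucose, had the highest non-CEN fold enrichment in cdc7-7 (chrVIII:451311-451846), with 2.54 in cdc7-7 and 1.82 in wild type, from pileups of 169 fragments in cdc7-7 and 412 in wild type. A second site in the same gene had 2.05 in cdc7-7 and 1.87 in wild type. The site between HIP1, a histidine permease gene, and TDH3, the main glyceraldehyde-3-phosphate dehydrogenase gene, had 2.43 in cdc7-7 and 1.91 in wild type, and its summits were 1 bp apart. CCW12, encoding an abundant mannoprotein of the cell wall, had 2.42 in cdc7-7 and 1.91 in wild type. At these 3 sites the higher value was in cdc7-7.

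Apart from KTR5, the other leading shared sites had nearly equal values or the higher value in wild type. RPL10, a gene of the large ribosomal subunit, had a fold enrichment of 2.14 in cdc7-7 and 2.13 in wild type. The end of TEF1, which encodes elongation factor EF-1 alpha, had 2.11 in cdc7-7 and 2.08 in wild type. COQ21 and SWC5, a gene of the SWR1 chromatin remodeller, flanked a site with 2.07 in cdc7-7 and 1.95 in wild type. At YEF3, encoding translation elongation factor 3, 2 cdc7-7 peaks lay over 1 wild type peak (chrXII:636780-639918), with 2.09 and 1.72 in cdc7-7 and 2.43 in wild type. RPL8A, also of the large subunit, had 2.1 in cdc7-7 and 2.35 in wild type, with the cdc7-7 summit just outside the gene, between SBP1 and RPL8A, and the wild type summit inside it. KTR5, a mannosyltransferase gene, had the highest ratio of all shared sites, 1.45, with 2.13 in cdc7-7 and 1.47 in wild type. The site between YHR054C and YHR054C-B had 2.22 in cdc7-7 and 2.13 in wild type on an unusually high background, 286 fragments in cdc7-7 and 791 in wild type. The reads of near-identical gene copies, such as TEF1 or the enolase genes, are uncertain, since the authors kept only reads with a single reportable position.

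Over the 134 shared cdc7-7 peaks, the median ratio of fold enrichment, cdc7-7 over wild type, was 1.05, from 0.708 at the second YEF3 peak to 1.45 at KTR5. The value was higher in cdc7-7 at 96 and higher in wild type at 38. These are sites that passed in both libraries, and a weak wild type site could enter only if its cdc7-7 value was high enough to be called. At the 29 with a wild type fold enrichment of at least 1.8, the median ratio was 0.958 and 12 were higher in cdc7-7. That limit is set on the wild type value, the divisor of the ratio, and so favours lower ratios. No shared site reached the median CEN ratio of 1.51. The fold enrichment includes the background, and it was at most 2.54 at these sites, against 3.40 or more at the centromeres. The ratios at shared sites and at centromeres are therefore not like measures. Whether the strains differ more at centromeres was not tested. The counting interval of the ratio left out 1 at 16 of 133 pairs with solved pileups, 14 of them above 1. Spearman's rho between the strains was 0.514 over the 134 pairs, as a description. The summits lay a median of 59.5 bp apart, and 82 of 134 were within 100 bp. The peaks themselves were narrower in cdc7-7, with a median width of 492.5 bp against 782 bp in wild type over the pairs. With each shared wild type peak counted only 1 time, the wild type median was 761.5 bp. The shallower cdc7-7 library needs a higher fold enrichment for a call, and the part of depth in the widths was not tested.

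**Figure D4:**
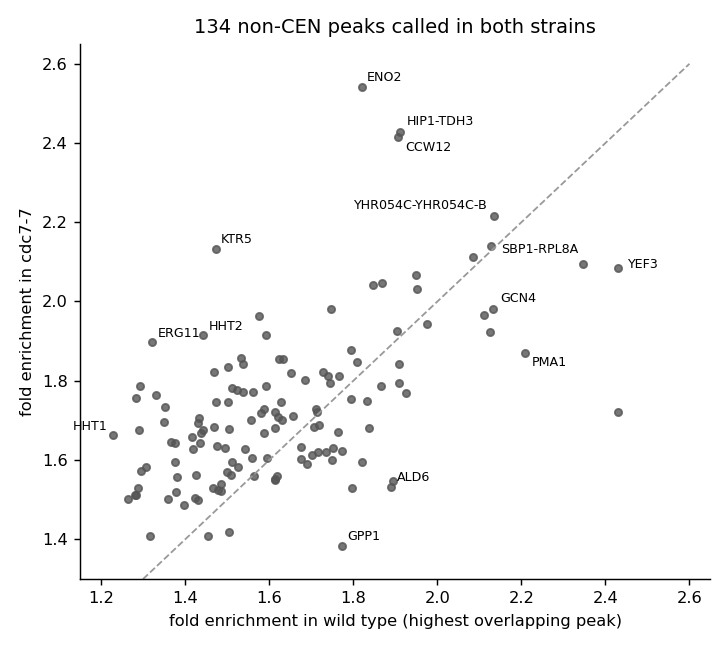
Fold enrichment in cdc7-7 (vertical axis) against wild type (horizontal axis) at the 134 shared non-CEN peaks of cdc7-7; the dashed line marks equal values, and some genes at or beside the summit are named. ENO2, HIP1-TDH3 and CCW12 lie above the line, while YEF3, PMA1 and GPP1 lie below it.

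Some shared sites away from the top of the ranking differed more between strains than the typical pair, and they are named here after their values were seen. ERG11, which encodes the lanosterol demethylase of ergosterol synthesis, had 1.90 in cdc7-7 and 1.32 in wild type. ERG6, encoding a sterol methyltransferase of the same pathway, had 1.76 in cdc7-7 and 1.33 in wild type. Both were higher in cdc7-7, by ratios of 1.44 at ERG11 and 1.32 at ERG6. PMA1, the plasma membrane proton pump gene, had 1.87 in cdc7-7 and 2.21 in wild type, and GPP1, a glycerol-3-phosphatase gene, had 1.38 in cdc7-7 and 1.77 in wild type. GPP1 had the lowest fold enrichment of the cdc7-7 list.

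Genes of glycolysis and fermentation often carried a peak in both strains. Of 21 genes, 10 (47.6%) had a peak in cdc7-7 and 12 (57.1%) in wild type, beside 2.43% of all genes in cdc7-7 and 11.2% in wild type, and 9 had one in both. After ENO2 and TDH3, FBA1, the aldolase gene, had 2.04 in cdc7-7 and 1.85 in wild type. CDC19, the pyruvate kinase gene, had 1.97 in cdc7-7 and 2.11 in wild type, and PGK1, the phosphoglycerate kinase gene, had 1.92 in cdc7-7 and 1.59 in wild type. ENO1, the second enolase gene, was in cdc7-7 only, at 1.79. HXK2, PGI1 and PFK2, genes of the upper steps of glycolysis, were in wild type only, at 1.58, 1.44 and 1.44. No gene of the 18 hexose transporters and sensors had a peak over its body in cdc7-7. In wild type 2 had one, HXT1 at 1.33 and HXT3 at 1.28. Peaks in cdc7-7 did lie between such genes. The peak between HXT7 and HXT6 was in cdc7-7 only, at 1.51. A shared site between HXT1 and HXT5 had 1.5 in cdc7-7 and 1.42 in wild type.

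Genes of ribosomal proteins, like genes as a whole, carried a peak more often in wild type. Of 137, 49 (35.8%) had a peak in cdc7-7 and 117 (85.4%) had one in wild type, with 48 in both. The shares of all genes were 2.43% in cdc7-7 and 11.2% in wild type. Besides RPL10 and RPL8A, strong sites in both included RPL3, with 2.03 in cdc7-7 and 1.95 in wild type, and RPS9A, with 1.86 in cdc7-7 and 1.63 in wild type. RPL14B was in cdc7-7 only, at 1.48, and 69 were in wild type only. The ribosomal protein genes are the reference set of the CAI, so the top 5% by CAI was also counted without them. Of these 165 genes, 41 (24.8%) had a peak in cdc7-7 and 75 (45.5%) in wild type, with 38 in both. Translation elongation factors had a peak at 4 of 11 in cdc7-7 and 5 of 11 in wild type, with TEF4 in wild type only, at 1.69. HYP2, the eIF5A gene, had 1.75 in cdc7-7 and 1.83 in wild type, and EFB1, encoding EF-1 beta, had 1.72 in cdc7-7 and 1.71 in wild type. In the group of 229 other genes with an intron, 8 (3.49%) had a peak in cdc7-7 and 24 (10.5%) in wild type, close to the share of all genes.

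Of the chaperone genes, 4 of 22 (18.2%) had a peak in cdc7-7 and 8 of 22 (36.4%) in wild type. The shares of all genes were 2.43% in cdc7-7 and 11.2% in wild type. SSA2, a cytosolic Hsp70 gene, had 1.79 in cdc7-7 and 1.91 in wild type, HSC82, an Hsp90 gene, had 1.75 in cdc7-7 and 1.47 in wild type, and SIS1, an Hsp40 gene, was in cdc7-7 only, at 1.47. SSC1, the mitochondrial Hsp70 gene, had a peak in each strain at different places along the gene, 1.69 in cdc7-7 and 1.33 in wild type. Of the cell wall genes, 4 of 22 (18.2%) had a peak in cdc7-7 and 7 of 22 (31.8%) in wild type. Besides CCW12, those in both were HSP150, CIS3 and CWP2. HSP150 had 1.83 and its neighbour CIS3 1.75 in cdc7-7, from separate peaks, against 1.5 in wild type from a single peak that reaches into both genes and has its summit in CIS3. CWP2 had 1.5 in cdc7-7 and 1.43 in wild type. PMA1 and the amino acid genes had peaks at 3 of 24 (12.5%) in cdc7-7 and 9 of 24 (37.5%) in wild type. The 3 in both included GCN4, the activator of amino acid synthesis, with 1.98 in cdc7-7 and 2.13 in wild type, and ILV5, an enzyme gene of branched-chain amino acid synthesis, with 1.94 in cdc7-7 and 1.98 in wild type.

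The histone genes were the group with the same number of carriers in both strains, 5 of 10 each, with 4 in both. Over all genes the shares were 2.43% in cdc7-7 and 11.2% in wild type. HTA2, an H2A gene, had 1.96 in cdc7-7 and 1.58 in wild type. HHT2, an H3 gene, had 1.91 in cdc7-7 and 1.44 in wild type. HHF1, an H4 gene, had 1.86 in cdc7-7 and 1.53 in wild type, and HHT1, the other H3 gene, had 1.66 in cdc7-7 and 1.23 in wild type. All 4 had the higher value in cdc7-7, in a set of shared sites of which 96 of 134 did. HHF2, the other H4 gene, was counted in cdc7-7 only, at 2.13. Its peak (chrXIV:576710-577549) is the one with its summit in KTR5, and the overlapping wild type peak began just past the end of HHF2, so this gene differed by the edge of a peak. HTA1 was in wild type only, at 1.4.

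The genes of the kinetochore and of Cse4 control carried peaks at about the rate of all genes or at counts too small to read. Of 45 kinetochore genes, 1 had a peak in cdc7-7 (2.2%) and 5 in wild type (11.1%), with none in both, which is near the share of all genes in each strain. The one in cdc7-7 was ASK1, of the DASH complex, at 1.68, which is the median of the non-CEN peaks in cdc7-7. Its peak is the shared site between ASK1 and SFK1, at 1.44 in wild type, so this gene differed by the edge of a peak. The 5 genes with a peak in wild type were SCM3, the Cse4 chaperone gene, at 1.36, NKP1 at 1.34, and CSE4 itself, NKP2 and SPC25 at 1.26. Of 12 genes made up of CSE4, SCM3 and regulators of Cse4 that the study names, none had a peak in cdc7-7 and 2 had one in wild type, SCM3 and CSE4. Of the 9 genes of DDK and the replicative helicase, none had a peak over the gene in cdc7-7 and 1 had one in wild type, MCM7 at 1.29. In these groups, every gene counted with a wild type peak had a value below the 1.39 that cdc7-7 needed at its median centromeric background. Some shared sites also had wild type values below 1.39, such as HHT1 at 1.23. The part of depth in these genes was not tested.

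**Figure D5:**
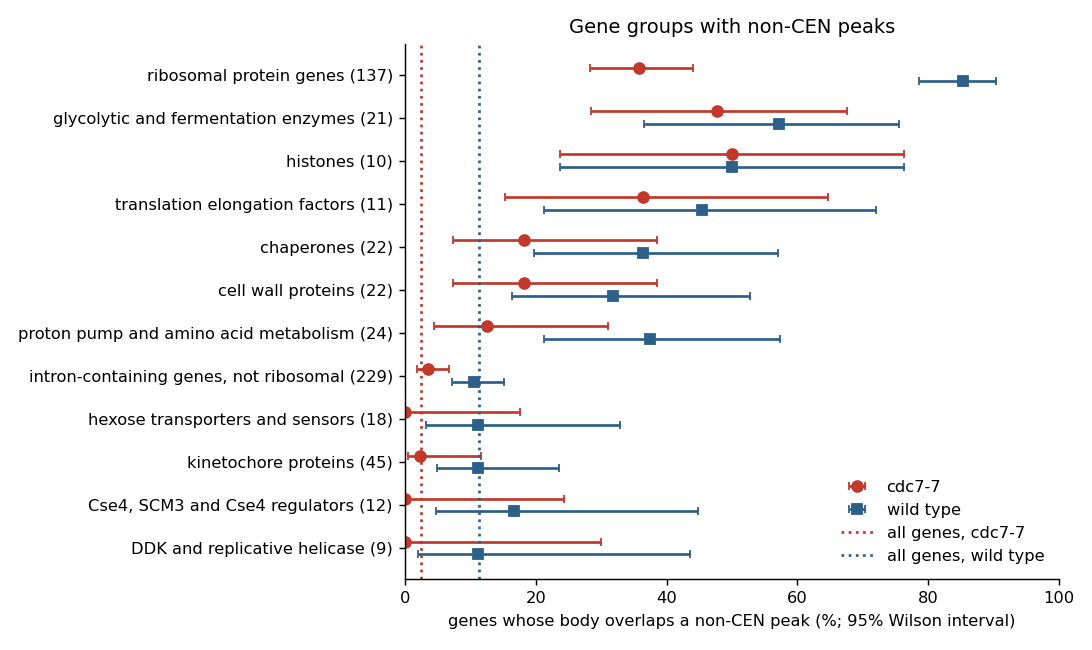
Share of the genes of each group whose body overlaps a non-CEN peak (horizontal axis, percent, with 95% Wilson intervals for counting error), cdc7-7 as red circles above wild type as blue squares, with the number of genes in parentheses; dotted lines give the share of all 6002 genes, 2.43% in cdc7-7 and 11.2% in wild type. Ribosomal protein genes are at 35.8% in cdc7-7 and 85.4% in wild type, and histone genes at 5 of 10 in both.

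The 33 non-CEN peaks in cdc7-7 only were weak, with a median fold enrichment of 1.55 and a highest of 1.88, and 5 lay within 1 kb of a wild type peak. The strongest was inside SLX4 (chrXII:415282-415580), a scaffold of DNA repair nucleases, at 1.88 from 120 fragments. The next lay between YNL190W and SRP1, an importin alpha gene, at 1.83 from 108 fragments, and in ENO1 at 1.79 from 111 fragments. Both ISR1, a protein kinase gene, at 1.73, and MBF1, a coactivator of Gcn4, at 1.72, had no wild type peak within 1 kb. GRS1, the glycyl-tRNA synthetase gene, at 1.72, and SSC1, at 1.69, each had one within 1 kb. The other 3 of the leading 10 were a site between NVJ2 and ASR1 at 1.72, over the small nucleolar RNA (snoRNA) genes SNR70 and SNR41, RRP15, a ribosome biogenesis gene, at 1.68, and a site between RML2 and PAU2 at 1.66, over SNR67 and SNR53. The 23 genes in cdc7-7 only came from these peaks for 18, and for the other 5 (ASK1, HHF2, IRC13, RAD17 and SVL3) from shared peaks that reached further in cdc7-7. Of the 33 peaks, 15 overlapped no protein-coding gene.

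One site in cdc7-7 only lies beside CDC7 and is named after its values were seen. It fell between ERP3 and CDC7 (chrIV:423852-424108), at a fold enrichment of 1.54 from 100 fragments over a background of 64.5. It also overlapped a peak of the cdc7-7 strain with GAL-driven Cse4, whose peaks cover 10.2% of the nuclear genome. The allele was integrated with the KanMX marker, which also marked the CDC7 of the wild type. The part of the cdc7-7 construct in this peak was not tested.

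The 661 sites in wild type only were led by NSR1 and DBP2. NSR1, encoding a nucleolar protein of pre-rRNA processing (chrVII:806373-807447), stood at 2.02 from 409 fragments, and DBP2, an RNA helicase gene, at 1.90 from 397 fragments. The site between RPL1B and PCL10 stood at 1.83 from 314 fragments. These 3 are the wild type peaks at 1.8 or more with no cdc7-7 peak. The next were a site between MRX16 and YCF1 at 1.78, ASC1, encoding a ribosome-bound protein of the RACK1 family, at 1.75, RPL16A at 1.75, RPL4B and RPS6B at 1.74, a site between GNP1 and SMT3, the SUMO gene, at 1.74, and UTH1 at 1.74. All 10 would have passed at the depth of cdc7-7, and no cdc7-7 peak lay within 10 kb of any of them.

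The sites differed in where they lay along genes. The summit was inside a protein-coding gene at 118 of 167 peaks in cdc7-7 (70.7%) and 503 of 795 in wild type (63.3%), beside 72.8% of the nuclear genome. Among shared peaks in cdc7-7 the share was 77.6%, with a 95% Wilson interval of 69.8 to 83.8% that includes the share of the genome. It was 42.4% in cdc7-7 only (14 of 33, interval 27.2 to 59.2%) and 59.9% in wild type only. Between divergent genes, where the promoters of both neighbours lie, fell 4 of 134 shared peaks (2.99%), 10 of 33 in cdc7-7 only (30.3%, interval 17.4 to 47.3%) and 104 of 661 in wild type only (15.7%), beside 8.82% of the genome. Between convergent genes fell 7.46% of shared peaks, 3.03% in cdc7-7 only and 2.27% in wild type only, beside 4.32% of the genome. Within genes, the median summit lay at 0.614 of the gene from its start for shared peaks and at 0.562 in wild type only, and at 0.208 for the 14 in cdc7-7 only. Shared summits thus lay in gene bodies at a share near that of the genome, and those within genes lay past the middle at the median. More of the 33 summits in cdc7-7 only lay outside genes than inside.

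The same classes were set beside the lists of the GAL-driven strains. A non-CEN peak of the cdc7-7 GAL list overlapped 42.5% of the shared peaks (57 of 134), 63.6% of those in cdc7-7 only (21 of 33, interval 46.6 to 77.8%) and 51.1% of those in wild type only (338 of 661). Non-CEN peaks of that list cover 10.2% of the nuclear genome. A wider peak overlaps more easily, and the median width was 492.5 bp for shared peaks, 314 bp in cdc7-7 only and 391 bp in wild type only. The wild type GAL list held 46 peaks, of which 30 were non-CEN peaks over 0.117% of the nuclear genome. These 30 overlapped 11 of 134 shared peaks, none of 33 in cdc7-7 only and 4 of 661 in wild type only. The GAL strains differ from those compared here in medium and in the level of Cse4.

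Among the other annotated features, snoRNA genes had the highest share with a peak in both strains. These encode the guides of rRNA modification and processing. Of 76, 23 (30.3%) had a peak in cdc7-7 and 28 (36.8%) in wild type, with 18 in both. Here 21 of the 23 in cdc7-7 lay outside protein-coding genes. SNR17A, one of the U3 genes, had 1.98 in cdc7-7 and 1.75 in wild type. The cluster from SNR77 to SNR73 on chromosome XIII shared 1 peak in each strain, with 1.79 in cdc7-7 and 1.59 in wild type. SNR30, needed for the processing of 18S rRNA, had 1.68 in cdc7-7 and 1.29 in wild type. The value was higher in cdc7-7 at 16 of the 18 in both. Since neighbours share peaks, the 23 and 28 genes rest on 15 peaks in cdc7-7 and 22 in wild type. Of the 275 tRNA genes, transcribed by RNA polymerase III, 1 had a peak in cdc7-7 (0.364%) and 23 in wild type (8.36%), with none in both. Of these 23, 15 had a wild type fold enrichment below the 1.39 that cdc7-7 needed at its median centromeric background. Of 352 replication origins, the sites at which DDK acts, 3 had a peak in cdc7-7 (0.852%) and 15 in wild type (4.26%), with 2 in both. These shares are near those of the nuclear genome under non-CEN peaks, 0.754% in cdc7-7 and 3.53% in wild type. No LTR or Ty element had a peak in cdc7-7, against 10 of 384 LTRs and 3 of 50 Ty elements in wild type, and no telomeric region had one in either strain. The authors kept only reads with a single reportable position, so reads from repeated copies of such elements were left out. A missing peak at an LTR, Ty element or telomeric region therefore cannot show that Cse4 was absent there. Within 10 kb of a centromere fell 5 of 167 peaks in cdc7-7 (2.99%) and 36 of 795 in wild type (4.53%), beside 2.67% of the genome.

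The letters of the centromere elements were looked for in the 300 bp around each non-CEN summit, on both strands. The CDEI core in the form CACGTG was in 1 of 134 windows of shared peaks (0.746%), 1 of 33 in cdc7-7 only and 35 of 661 in wild type only (5.30%), beside 2.23% of all windows of that length in the nuclear genome. Outside genes the share in wild type only was 6.04% beside 3.19% of such genome windows, and inside genes it was 4.80% beside 1.87%. Among the 240 peaks in wild type only that would have passed at the depth of cdc7-7, 10 windows (4.17%) held it. The other form, CACATG, was in 5.99% of windows in cdc7-7 and 8.93% in wild type, beside 8.79% of all windows. The letters TTCCGAA of CDEIII were in 5.39% in cdc7-7 and 3.90% in wild type, beside 3.62%. The 3 strongest peaks in wild type only with CACGTG are shown with 9 bases on each side, core in capitals, plus strand of build R64.
CWC21, fold enrichment 1.62, chrIV:1420770-1420793: tgatcgctgCACGTGgcccgacgt
SCS3, fold enrichment 1.5, chrVII:271690-271713: ccatccgggCACGTGttcttggcc
NCB2, fold enrichment 1.48, chrIV:1266591-1266614: cgctttgatCACGTGctcgggcgc
All 3 have their summit inside the named gene. The match lay 78 bp above the summit coordinate at CWC21, and 129 and 35 bp below it at SCS3 and NCB2. A match is a description of the letters and not a binding site.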

How the data were processed

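ChIP-seq of endogenous Cse4 was analysed in cdc7-7 and wild type, with 1 ChIP and 1 input library per strain. The authors aligned paired reads to S288C (R64-2-1) with Bowtie 1.0.0, keeping reads with 1 reportable position, discarded duplicate reads with SAMtools, and ran MACS on each ChIP library against its input, at its default q of 0.05. Removing duplicates can flatten tall peaks. The deposited values are positions, the fold enrichment as a ratio over local background, and −log10 p and −log10 q at the summit. The total number of fragments per library was not used here. Pileup and background were solved from the fold enrichment, formed with a pseudocount of 1, and the Poisson p. Features came from the RefSeq annotation of R64, which has no UTRs, and CAI was calculated for 5921 genes with at least 50 codons. Summit windows were 300 bp. Counting intervals are 95% Wilson intervals for shares and exact conditional Poisson intervals for ratios. Members, gene lists and named sites were chosen with earlier results of these data known. The rule named all 16 centromeres, the 10 strongest shared sites in cdc7-7, the 10 strongest in each strain only, and of each gene list up to 5 members in both and those in cdc7-7 only; others are named as chosen after their values were seen or as members in wild type only. One item that the rule names is not reported here. The alternatives tried were limits on −log10 q (at least 5) and on fold enrichment (at least 1.5), overlap of 50% or a gap of 250 bp, summits in genes, 500 bp upstream, midpoints, no pseudocount and depth rescaling. The solver was tested on simulated data. Python 3.11.15, numpy 2.4.6, pandas 2.3.3, scipy 1.17.1 and statsmodels 0.14.6 were used.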

Additional observations from a re-analysis of the deposited data

How the results depend on the processing

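No paired analysis was possible because each strain gave 1 library. The 9 summary results were recalculated under 32 alternatives in all, of which 20 stayed within the limits set for them and 12 moved. The share of cdc7-7 non-CEN peaks overlapping a wild type peak, 80.2%, was 57.6% with a minimum fold enrichment of 1.5 in both lists. The share of wild type peaks overlapping a cdc7-7 peak, 16.9%, was 50.6% at that minimum and 31.8% among peaks passing at the depth of cdc7-7. With the wild type list cut to the length of the cdc7-7 list, an alternative chosen after seeing the data, the shares were 54.5% of cdc7-7 peaks and 52.7% of wild type peaks. With a minimum −log10 q of 5, genes in both numbered 61 (123 without it), in cdc7-7 only 11 (23) and in wild type only 274 (549), and 67.5% of wild type summits were inside genes (63.3%). With the wild type peaks that pass at the depth of cdc7-7, genes in cdc7-7 only numbered 39 and in wild type only 226. Divided by the non-CEN median of each list, the CEN ratio was 1.24 (1.51). The overlap of the lists and the counts of genes in 1 strain only therefore depend in part on the threshold and on the depth rescaling. The ratio at shared sites, 1.05, was 1.06 without the pseudocount, at a minimum −log10 q of 5 and for summits within 100 bp. At a wild type fold enrichment of at least 1.8 it was 0.958, but a limit on the divisor alone favours lower ratios. Whether the ratio depends on the strength of the sites was not tested.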
